A study of Mus musculus with 6 samples.

Results

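The cytoplasmic tail of nephrin, the transmembrane protein of the podocyte slit diaphragm, is held to the actin cytoskeleton and to survival signalling by a small set of adaptors and kinases. The genes of 10 of these proteins (Cd2ap, Nck1, Nck2, Fyn, Iqgap1, Cask, Crk, Crkl, Sh3kbp1 and Pik3r1) were examined in glomeruli that lack dendrin. Dendrin is a cytosolic protein of the same junction that binds nephrin and Cd2ap. All probe sets that the array annotation pairs with exactly 1 of these genes were taken, which gave 39 of the 45101 probe sets on the array and 10 of its 18194 named genes, with 2 to 7 probe sets per gene. Glomeruli came from 3 dendrin knockout mice (genotype Dendrin KO) and 3 littermate control mice (genotype wild type), all 13 months old and on a mixed 129S6SvEv/C57BL6 background that had been crossed repeatedly to C57BL/6. In the knockout line the whole coding sequence of dendrin is replaced by a cassette with eGFP and a neomycin resistance gene, in every cell and from the germ line on, and the line goes back to targeted embryonic stem cells. Each mouse gave 1 Affymetrix array. The values are log2 intensities after GCRMA, a method that subtracts background by probe sequence, brings arrays to a common distribution and summarizes the probes of a probe set. A difference of 1 is thus a 2-fold difference.

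When the tail of nephrin is phosphorylated on tyrosine by the kinase Fyn, the SH2 domains of Nck1 and Nck2 bind it and recruit the machinery of actin polymerization. The p85 alpha subunit of phosphoinositide 3-kinase, encoded by Pik3r1, also docks there and feeds the Akt survival pathway, and Crk and Crkl link the tail to the turnover of focal adhesions. Cd2ap and its relative Sh3kbp1 (CIN85) are SH3 adaptors for actin and for endocytosis, while Iqgap1 and Cask are scaffold proteins. Loss of Cd2ap, or of both Nck proteins in podocytes, causes proteinuria in mice.

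The labels were checked first. Ddn, the gene of dendrin, had values of 3.80, 3.81 and 3.80 in knockout glomeruli, against 12.22, 12.81 and 12.31 in control glomeruli, a difference of -8.64 (standard error 0.18, adjusted p = 0.0197 from limma). No source used here says whether the probes of Ddn lie inside the replaced sequence. Podocyte genes were strongly expressed in every array, with a mean over the 6 measured markers of 13.65 to 13.74 in knockout and 13.47 to 13.75 in control glomeruli, and all 6 were above the dim range. Control 2 stood apart from the other arrays, as the plot of marker lists shows. Relative to the mean of the other 5 arrays, its mean over 8 leukocyte markers was at -2.58, that over 6 markers of loop, distal tubule and collecting duct at 2.23 and that over 6 proximal tubule markers at 1.02. Dim markers (mean under log2 4) numbered 1 in the loop, distal tubule and collecting duct list and 2 in the proximal tubule list. The correlation of control 2 with other arrays was 0.973 to 0.985 across the 19619 probe sets that are not dim, whereas the lowest correlation among the other 5 arrays was 0.988. Differences without control 2 are given for the adaptor probe sets in which leaving it out turned a direction, ended an overlap or moved the difference by over 1.5 times. Whole glomeruli hold several cell types, and fewer cells of a type cannot be told apart from less RNA per cell.

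**Figure D1:**
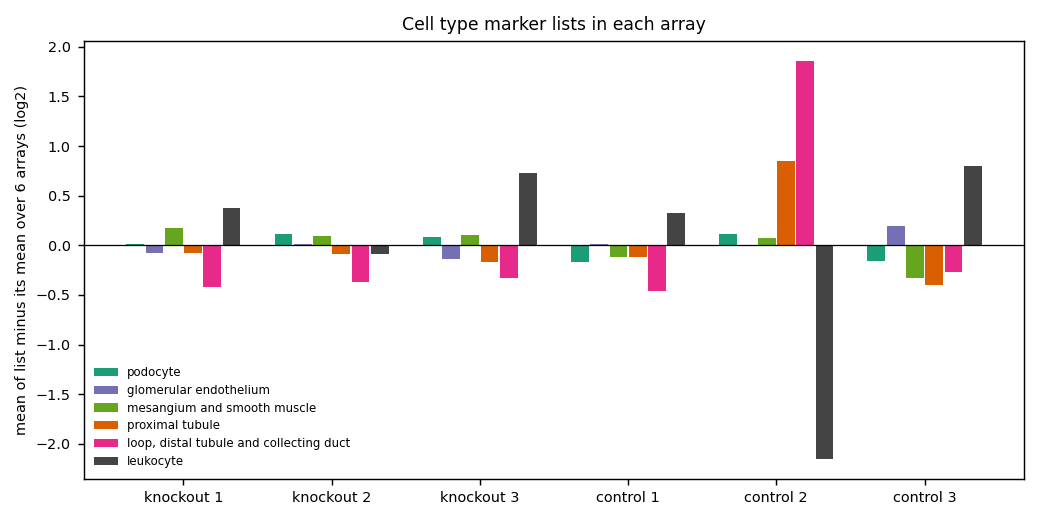
Mean log2 value of each list of cell type markers in each array, minus the mean of the list over the 6 arrays, with 6 to 8 genes in a list. Control 2 is low in leukocyte genes and high in both tubule lists, and podocyte genes vary little.

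None of the nephrin adaptors passed the test for a difference between knockout and control glomeruli. Of the 39 probe sets, 6 were dim, each with the same value in all mice (at most 2.21), and 33 were not dim, that is, had a mean of at least 4 (log2). At least 2 probe sets of every gene were among these 33. No member probe set passed the fold over 1.5 with an unadjusted p under 0.05 that the study used as its criterion, where 0.18% of all probe sets and 0.382% of those that are not dim passed with limma. None had an adjusted p under 0.05 (background 0.00222%, Ddn alone). In the main limma fit (all arrays and probe sets, without a block or array weights), none had an unadjusted p under 0.05. The same fit gave one for 3.63% of all probe sets and 8.12% of those that are not dim. With SAM, the permutation method named by the study, 1 of the 33 had an unadjusted p under 0.05, that of Fyn described below. The share of all probe sets that passed with SAM is not given here. In the main limma fit, the smallest unadjusted p was 0.0657, also that of Fyn, and all adjusted p values were 1.

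The differences were small in both directions. Of the 33 probe sets, 12 were above 0 and 21 below, with a range of -0.41 to 0.17 and a median of -0.064, against a median of 0.015 over all probe sets that are not dim. The median size of the difference was 0.093 for the members and 0.090 for all probe sets that are not dim. All knockout mice lay on one side of all control mice in 2 of the 33 member probe sets (6.06%), both higher in knockout. The same was true of 13.7% of all probe sets that are not dim (8.03% higher and 5.65% lower in knockout), so the adaptors separated the groups no more often than the array at large. The 95% interval of the difference lay within 1.5-fold in both directions for the probe set with the highest mean of all 10 genes and for 24 of the 33 probe sets (72.7%), against 77% of all probe sets that are not dim. In a limma fit on the probe sets that are not dim alone, 27 of the 33 intervals lay within 1.5-fold (82.2% of all), none had an unadjusted p under 0.05 (8.06% of all) and the smallest adjusted p was 0.626. For a single probe set, the smallest two-sided p that an exact permutation of these 6 arrays can reach is 0.1.

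**Figure D2:**
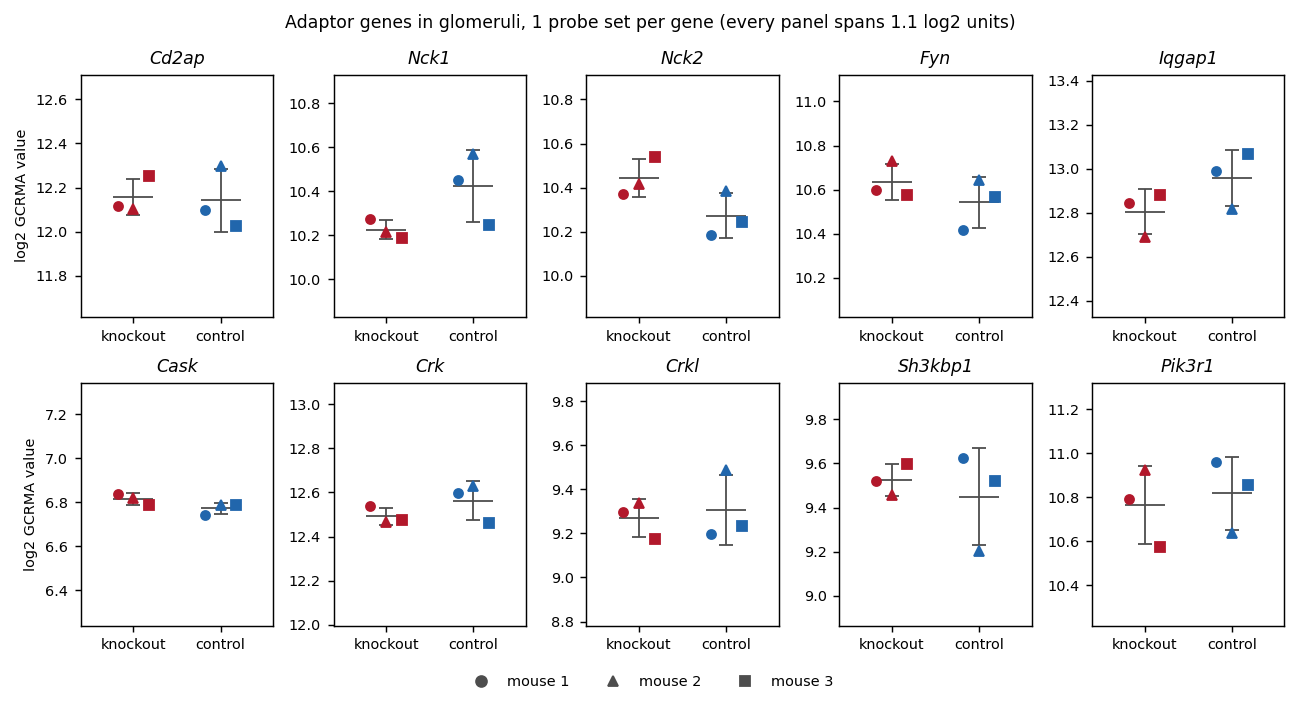
Log2 GCRMA value of the probe set with the highest mean of each gene in 3 knockout and 3 control mice. Bars give the mean and SD (n = 3), symbols mark the replicate number, and every panel spans the same range. Both groups overlap in all 10 panels.

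**Figure D3:**
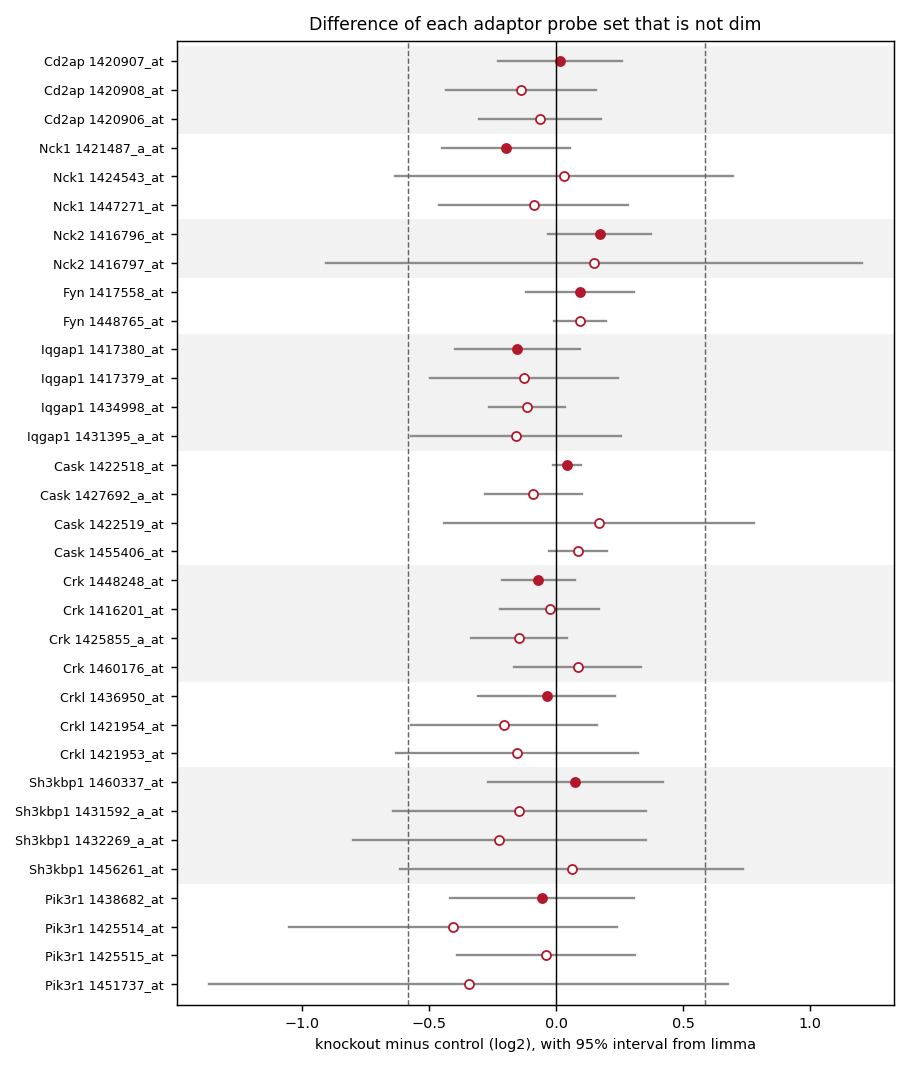
Knockout minus control (log2) of the 33 member probe sets that are not dim, with 95% limma intervals. Filled points are the probe set with the highest mean of each gene, and dashed lines mark 1.5-fold. The widest intervals belong to Pik3r1 1451737_at and Nck2 1416797_at.

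Cd2ap, the adaptor that binds both nephrin and dendrin, differed between the groups by less than its spread between mice. Its probe set with the highest mean, 1420907_at, had values of 12.12, 12.10 and 12.25 in knockout glomeruli, against 12.10, 12.30 and 12.03 in control glomeruli. The control values enclosed those of the knockout mice. The difference was 0.015 (standard error 0.091), and its 95% interval ran from 0.853-fold to 1.20-fold. The other 2 probe sets of Cd2ap were at -0.14 (standard error 0.11) and -0.064 (standard error 0.089). Control 2 had the highest value in all 3. Without it, the difference of 1420907_at was 0.094, with all knockout values above those of the remaining controls, and that of 1420906_at, the lowest of the 3 in mean, was -0.019.

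Sh3kbp1 encodes CIN85, the SH3 adaptor most closely related to Cd2ap. The probe set 1460337_at had values of 9.52, 9.45 and 9.60 in knockout glomeruli, against 9.62, 9.20 and 9.52 in control glomeruli, a difference of 0.074 (standard error 0.13). The low control value was that of control 2, which was the lowest array in all 4 probe sets of Sh3kbp1, with a median of -0.35 relative to the mean of the other 5. Without control 2, all 4 differences were negative, at -0.048 for 1460337_at and -0.17 for 1456261_at, which were at 0.074 and 0.061 on all arrays. For 1431592_a_at, with 9.05, 8.83 and 8.98 in knockout glomeruli, against 9.22, 8.74 and 9.33 in control glomeruli, the difference was -0.14 on all arrays and -0.32 (standard error 0.090) without control 2. For 1432269_a_at, with 7.09, 6.82 and 6.90 in knockout glomeruli, against 7.39, 6.75 and 7.35 in control glomeruli, it was -0.22 on all arrays and -0.43 (standard error 0.096) without it. In both, the remaining controls lay above all knockout mice. Without control 2 both had an unadjusted p under 0.05 with limma, and adjusted p values of 0.772 and 0.689. Control 2 was also the lowest array for all 8 leukocyte markers (mean of the list 10.93 to 11.75 in knockout and 8.86 to 11.81 in control glomeruli, summed unlogged level 21332 to 37082 in knockout and 7215 to 35966 in control, no marker dim). The part of leukocyte RNA in the values of Sh3kbp1 was not tested.

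**Figure D4:**
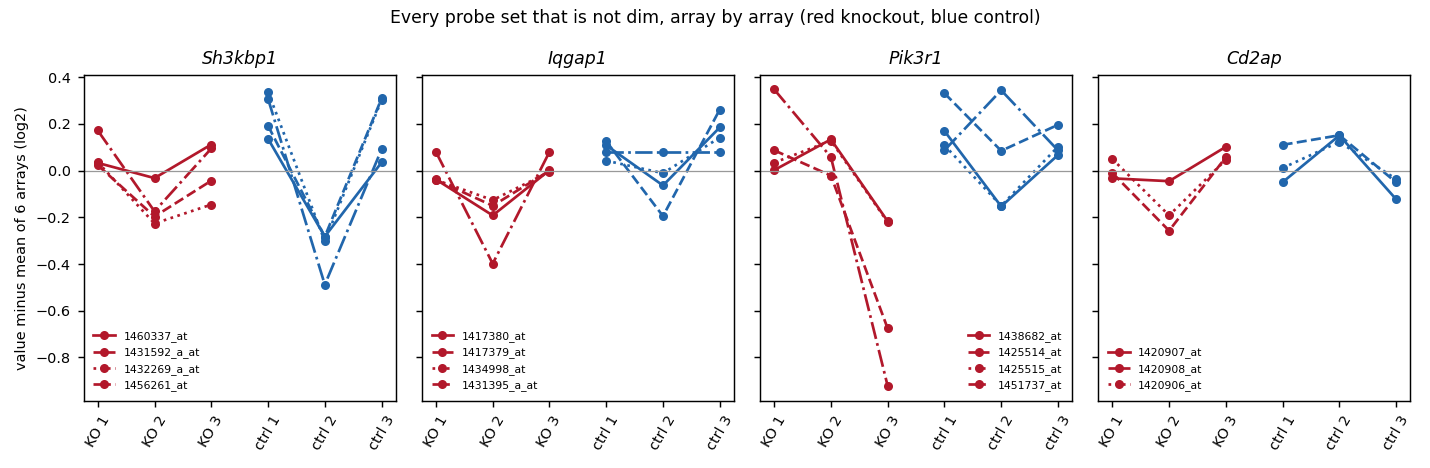
Value of each probe set that is not dim, minus its mean over the 6 arrays (log2), for 4 genes. Lines join values of 1 probe set within a group. Control 2 is the lowest array in all 4 probe sets of Sh3kbp1 and knockout 3 in all 4 of Pik3r1.

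Nck1 and Nck2, the adaptors that carry phosphorylated nephrin to the actin machinery, had differences of opposite sign. Nck1 1421487_a_at had values of 10.27, 10.21 and 10.19 in knockout glomeruli, against 10.45, 10.57 and 10.25 in control glomeruli, a difference of -0.20 (standard error 0.094). Knockout 1 was above control 3, so that the groups overlapped. Nck2 1416796_at had values of 10.37, 10.42 and 10.54 in knockout glomeruli, against 10.19, 10.38 and 10.25 in control glomeruli, a difference of 0.17 (standard error 0.075). Here knockout 1 was below control 2. The unadjusted p with limma was 0.0986 for Nck1 and 0.0789 for Nck2. The remaining probe sets of both genes were less precise. The other Nck1 probe sets were at 0.031 (standard error 0.25) and -0.089 (standard error 0.14), and the second Nck2 probe set that is not dim was at 0.15 (standard error 0.39), with 6.28, 6.15 and 6.30 in knockout glomeruli, against 5.32, 6.67 and 6.29 in control glomeruli. Without control 2, the difference of Nck2 1416796_at was 0.23 and the groups no longer overlapped (limma, unadjusted p = 0.0346, adjusted p = 0.785). In Nck1 1421487_a_at, control 2 was the highest array, and without it the difference was -0.12 (limma, unadjusted p = 0.205). The less precise Nck1 1424543_at was then at 0.14 and Nck2 1416797_at at 0.44. Without control 3, the difference of Nck1 1421487_a_at was -0.28 (limma, unadjusted p = 0.00928, adjusted p = 1).

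The ratio of the 2 paralogs within each array was set out for Nck and, in the same way, for the other paralogous pairs. With the mean of the controls set to 0, the log2 ratio of Nck2 to Nck1 was 0.25, 0.35 and 0.50 in knockout glomeruli, against -0.11, -0.035 and 0.15 in control glomeruli. It averaged 0.37 ± 0.13 in knockout and 0 ± 0.13 in control glomeruli (SD, n = 3 each), and all knockout mice lay above all control mice. The ratio combines the opposite differences of the 2 genes, and the pair was known to differ in sign from earlier results of these arrays. Its separation is thus a description without a test and adds nothing to the values of each gene. How often the ratios of other gene pairs separate the groups was not worked out. The ratio of Crkl to Crk was 0.016, 0.13 and -0.045 in knockout glomeruli, against -0.14, 0.12 and 0.028 in control glomeruli, and that of Sh3kbp1 to Cd2ap was 0.096, 0.043 and 0.040 in knockout glomeruli, against 0.22, -0.40 and 0.19 in control glomeruli. Both of these overlapped.

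**Figure D5:**
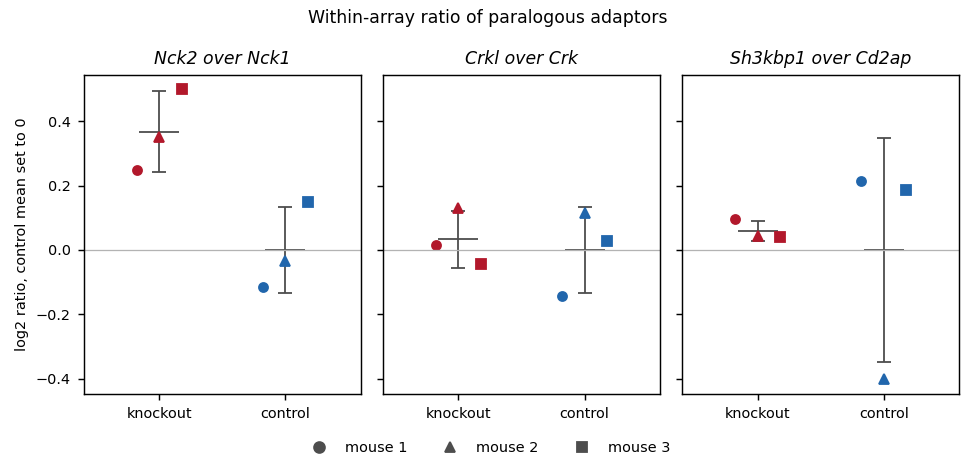
Log2 ratio within each array of the probe sets with the highest mean of 2 related genes, with the control mean set to 0. Bars give the mean and SD of 3 mice. Knockout and control separate for Nck2 over Nck1, a pair known beforehand to differ in sign, and overlap for the other pairs. The ratios were not tested.

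Fyn, the Src family kinase that phosphorylates nephrin, had a difference of 0.093 in both of its probe sets on all arrays, and did not pass the test with limma in either. The probe set 1448765_at had values of 10.47, 10.41 and 10.54 in knockout glomeruli, against 10.41, 10.36 and 10.38 in control glomeruli, so that every knockout value was above every control value. Its difference of 0.093 (standard error 0.038) corresponds to 1.07-fold, with an interval of 0.994-fold to 1.14-fold (limma, unadjusted p = 0.0657). The unadjusted p from SAM, pooled over the permutations of the arrays, was 0.0455. In the limma fit on the probe sets that are not dim alone, the unadjusted p was 0.141, with a log2 interval of -0.042 to 0.23. The exact permutation p was 0.1, the smallest that the design allows. The probe set 1417558_at had values of 10.60, 10.73 and 10.58 in knockout glomeruli, against 10.42, 10.64 and 10.57 in control glomeruli, which is again 0.093 apart (standard error 0.079), and the groups overlapped. The size in 1417558_at changed with single control arrays. Without control 1 it was 0.030, against 0.11 in 1448765_at, and without control 2 it was 0.14, with all knockout values above the remaining controls, against 0.081 in 1448765_at.

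Pik3r1, the regulatory subunit through which phosphoinositide 3-kinase is drawn to nephrin, had the 2 differences furthest from 0 among the members, and 1 mouse, knockout 3, had the lowest value throughout. The probe set 1438682_at had values of 10.79, 10.92 and 10.57 in knockout glomeruli, against 10.96, 10.64 and 10.86 in control glomeruli, a difference of -0.055 (standard error 0.13). The lowest difference of all members was that of 1425514_at, with 9.85, 9.74 and 9.09 in knockout glomeruli, against 10.10, 9.85 and 9.96 in control glomeruli. It amounted to -0.41 with a standard error of 0.24 (limma, unadjusted p = 0.159), and the interval of 0.482-fold to 1.18-fold does not exclude a fall of 1.5-fold or more. In 1451737_at the same mouse, knockout 3, had 6.27, against 7.54 and 7.25 in the other knockout mice and 7.28, 7.53 and 7.28 in control glomeruli. Relative to the mean of the other 5 arrays, knockout 3 was at -0.81 in 1425514_at, at -1.11 in 1451737_at and at -0.26 in 1438682_at and 1425515_at. Without knockout 3, the difference was -0.17 for 1425514_at, 0.040 for 1438682_at, 0.061 for 1425515_at and 0.030 for 1451737_at. Without control 2, it was -0.47 for 1425514_at, with all knockout values below the remaining controls, -0.15 for 1438682_at and -0.12 for 1425515_at, the last of which was at -0.039 on all arrays.

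Crk and Crkl, adaptors with SH2 and SH3 domains that act on focal adhesions, did not separate the groups in any probe set. Crk 1448248_at had values of 12.54, 12.46 and 12.48 in knockout glomeruli, against 12.60, 12.63 and 12.46 in control glomeruli, a difference of -0.071 (standard error 0.053) with an interval of 0.862-fold to 1.05-fold. Its other probe sets that are not dim were at -0.025, -0.15 and 0.084. Crkl 1436950_at had values of 9.30, 9.34 and 9.17 in knockout glomeruli, against 9.20, 9.49 and 9.24 in control glomeruli, a difference of -0.037 (standard error 0.10). The other 2 were at -0.21 (standard error 0.14) and -0.15 (standard error 0.18). Control 2 had the highest value in 3 of the 4 Crk and 2 of the 3 Crkl probe sets, and without it most of these differences were smaller or turned. Crkl 1436950_at was then at 0.054, against -0.037 on all arrays, and Crkl 1421954_at at -0.092, against -0.21. Crk 1448248_at was at -0.038, against -0.071 on all arrays, Crk 1425855_a_at at -0.095, against -0.15, and Crk 1416201_at at 0.031, against -0.025.

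Iqgap1, a scaffold that binds actin and small GTPases, had differences below 0 in each of its 4 probe sets that are not dim. They lay between -0.16 and -0.11, and none passed the test in the main limma fit. With the replicate number as a block, 1417380_at and 1434998_at had unadjusted p values of 0.00582 and 0.0150 (limma, adjusted p = 0.763 and 0.935). Mice of the same number were not taken as pairs. The probe set 1417380_at had values of 12.84, 12.69 and 12.88 in knockout glomeruli, against 12.99, 12.82 and 13.07 in control glomeruli. The difference was -0.15 (limma, standard error 0.091, unadjusted p = 0.163), and 2 of the 3 knockout mice were above control 2. For 1434998_at, with 10.66, 10.58 and 10.70 in knockout glomeruli, against 10.75, 10.69 and 10.84 in control glomeruli, it was -0.11 (limma, standard error 0.055, unadjusted p = 0.101), and only knockout 3 was above control 2. For 1417379_at, with 11.78, 11.67 and 11.82 in knockout glomeruli, against 11.94, 11.62 and 12.08 in control glomeruli, it was -0.13 (standard error 0.14). The fourth probe set, 1431395_a_at, stood at 5.75 on 5 arrays and at 5.27 in knockout 2, so that its difference is that of 1 mouse. All 6 markers of glomerular endothelium had differences below 0 too, with a mean of the list of 12.09 to 12.23 in knockout and 12.23 to 12.42 in control glomeruli, a summed unlogged level of 48054 to 51794 in knockout and 51632 to 54492 in control, and no marker dim. Their part in the values of Iqgap1 was not tested. Without control 2, the knockout values of 1417380_at, 1417379_at and 1434998_at all lay below the control values, with differences of -0.22, -0.26 and -0.15. Of these, 1417379_at alone had an unadjusted p under 0.05 (limma, unadjusted p = 0.0338, adjusted p = 0.778). Over all members, 11 of the 33 probe sets (33.3%) had no overlap without control 2, where 32.1% of all probe sets that are not dim had none, and 4 had an unadjusted p under 0.05 with limma, where 12.4% of all did.

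Cask, a membrane-associated scaffold of the guanylate kinase family that binds nephrin, had the smallest standard error among the 33 member probe sets that are not dim, in 1422518_at. This probe set had values of 6.84, 6.82 and 6.79 in knockout glomeruli, against 6.74, 6.79 and 6.79 in control glomeruli, a difference of 0.043 (standard error 0.020) with an interval of 0.992-fold to 1.07-fold. That precision belongs to the main limma fit (unadjusted p = 0.0964). In the limma fit on the probe sets that are not dim alone, the log2 interval was wider, -0.073 to 0.16 (unadjusted p = 0.392). The probe set 1455406_at did not overlap, with 5.09, 5.02 and 4.942 in knockout glomeruli, against 4.934, 4.925 and 4.938 in control glomeruli. Its difference of 0.085 (limma, standard error 0.042, unadjusted p = 0.109) was 1.06-fold, and the gap between knockout 3 and control 3 was in the third decimal. The 2 remaining probe sets, 1427692_a_at and 1422519_at, were at -0.090 (standard error 0.071) and 0.17 (standard error 0.23), and without control 2 at -0.059 and 0.33.

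Other genes of the same pathway were counted with 1 probe set per gene. Of 54 genes listed, 44 were paired with a probe set of their own and 42 were not dim. Of these, 5 (11.9%) had an unadjusted p under 0.05 with limma, 3 higher and 2 lower, where 8.33% of all genes that are not dim did, and none passed an adjusted p of 0.05. The groups did not overlap for 5 of the 42 genes, against 13.9% of all genes that are not dim. Without control 2, 6 had an unadjusted p under 0.05, against 13.6% of all. The median difference of the 42 genes was 0.060, against 0.030 over all genes that are not dim. The receptors and membrane scaffold (3 genes that are not dim) had no gene with an unadjusted p under 0.05 in the main limma fit. Nphs1, the gene of nephrin itself, had values of 12.81, 12.90 and 12.85 in knockout glomeruli, against 12.45, 12.84 and 12.55 in control glomeruli, a difference of 0.24 (standard error 0.12). Without control 2 it was 0.35 (limma, unadjusted p = 0.00409, adjusted p = 0.531). With array weights on all arrays, the unadjusted p of Nphs1 was 0.0215 (limma, adjusted p = 0.934). Kirrel, which encodes the nephrin partner Neph1, was at 0.26 (standard error 0.11), with 9.57, 9.75 and 9.61 in knockout glomeruli, against 9.36, 9.56 and 9.22 in control glomeruli, and no overlap. In the main limma fit it had an unadjusted p of 0.0684, and with SAM one of 0.0479. Other limma fits on all arrays gave 0.0274 (array weights) to 0.0474 (filter at log2 4), none with an adjusted p under 0.05. These were array weights, the replicate block, median centring and the filters on mean or span. With the intensity trend, the offset or a second quantile normalization it did not pass. Without control 2 its difference was 0.35. All 6 podocyte markers, Nphs1 among them, had differences above 0, and the mean of the list differed by 0.14, a shift whose part in these values was not tested.

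Among 17 actin effectors, 3 were higher and 1 lower at an unadjusted p under 0.05 with limma, where 8.33% of all genes that are not dim were in either direction. Cttn, the gene of the actin-binding protein cortactin, had the smallest p of the pathway (limma, unadjusted p = 0.00272, adjusted p = 0.930), although its values of 12.32, 12.33 and 12.34 in knockout glomeruli, against 12.26, 12.24 and 12.21 in control glomeruli, differed by only 0.095 (standard error 0.015). Pak2, a kinase activated by Rac and Cdc42, was at 0.16 (standard error 0.050) and the actin crosslinker Actn4 at 0.15 (standard error 0.053), both without overlap. Dock1, a Rac exchange factor that acts with Crk, was at -0.14 (standard error 0.052). These calls belong to the main limma fit. In the limma fits filtered on the mean (log2 4 or 6), Pak2 alone of the actin effectors passed. With the filter on the span, none of them passed, Cttn included. Of 6 markers of mesangium and smooth muscle, 4 had differences above 0 and 2 below. The mean of that list was 11.34 to 11.42 in knockout and 10.92 to 11.32 in control glomeruli, with no marker dim, and its summed unlogged level was 31099 to 33344 in knockout and 30085 to 33704 in control. The part of these cells in the values of the actin effectors was not tested. Of 9 genes of tyrosine kinases, phosphatases and signal adaptors, only the ubiquitin ligase gene Cblb passed in the main limma fit, at -0.11 (standard error 0.037). It did not pass with the filters on the mean or the span. Without control 2, Cttn and Cblb still had an unadjusted p under 0.05 with limma, and Pak2, Actn4 and Dock1 did not. The actin effector Wipf1 was then at -0.11 (limma, unadjusted p = 0.0325, adjusted p = 0.774). None of 13 genes of the phosphoinositide 3-kinase and Akt branch passed in the main limma fit. Without control 2, Pdpk1 of this branch was at 0.23 (limma, unadjusted p = 0.00670, adjusted p = 0.595), against 0.14 on all arrays. With array weights, Pdpk1 had an unadjusted p of 0.0398 (limma, adjusted p = 0.995). The furthest from 0 were the catalytic subunit Pik3cb at 0.32 (standard error 0.19, and 0.17 without control 2) and the regulatory subunit Pik3r3 at -0.26 (standard error 0.14).

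The chromosomes and start regions of the member genes, which were not used to choose them, were described as well. None of the 10 genes lies on chromosome 15, where Ddn is found (GRCm38.p6 annotation). The share of all genes off that chromosome was not worked out, so this is not a trait particular to the members. RefSeq start regions, 250 bases before to 50 after a transcription start, were matched for 9 of them, all but Cask. Each of the 9 had at least 1 start region rich in CpG (over 50% G and C, with a ratio of observed to expected CG pairs above 0.6 on the 300 bases), as had 35.8% of all 27025 genes with a start region. That share covers genes whether or not they are expressed in glomeruli, so it is not matched to the members. The 9 members had 14 start regions, and the 27025 genes had 32851. The CpG-rich regions of the members held 65.0% to 77.0% G and C. Nck1, Sh3kbp1 and Pik3r1 also had start regions that were not CpG-rich.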

How the data were processed

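Glomerular RNA of 3 dendrin knockout and 3 littermate control mice was hybridized to Affymetrix mouse whole-genome arrays. The deposited values are log2 intensities that the authors made with GCRMA (version 2.30.0), one column per mouse. Raw intensities were not analysed here. There are no read counts, and precision is limited by how few arrays there are. The labelled genotype set each array's group. Probe sets were named by the platform annotation, which pairs 34958 with 1 gene, 932 with several and 9211 with none, and only the first kind was used. A mean over the 6 arrays under log2 4 is called dim.

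Groups were compared with limma (version 3.58.1, R 4.3.3), lmFit and eBayes, two-sided, on all 45101 probe sets, unfiltered (4 residual and 0.312 prior degrees of freedom), with Benjamini-Hochberg adjustment over all of them. Intervals are the 95% limma intervals of single probe sets, not adjusted for their number. The members, the pathway and marker lists and the tests were chosen with earlier results of these data known. Named are all members, with values per array for the probe set with the highest mean and for others that separate the groups or are needed to describe a gene (chosen after their values were seen), and pathway genes with an unadjusted p under 0.05 or else the 2 largest differences of a list. Of the 54 pathway genes listed, 10 were not analysed here. Alternatives were SAM (written out in R, p pooled over 20 groupings), an intensity trend with a robust prior, array weights, filters on the mean (log2 4 or 6) or the span (0.1), median centring, a second quantile normalization, an offset of 16, the replicate number as a block and the omission of each array. The limma and SAM fits were also run on simulated data, with independent noise for each probe set and changes of 1.5-fold or 2-fold. Those data held no array that stands apart, as control 2 does, and no changes as small as the member differences. They therefore do not show how the fits behave in those respects.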

Additional observations from a re-analysis of the deposited data

How the results depend on the processing

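No member probe set had an adjusted p under 0.05 or passed the fold and p criterion under any alternative, and the smallest adjusted p of a member over all of them was 0.602. At an unadjusted p under 0.05, the count of member probe sets was 0 in the main limma fit and changed under some alternatives. It became 1 with SAM (Fyn 1448765_at), 1 with array weights (Nck2 1416796_at) and 2 with the replicate block. The last 2 were Iqgap1 1417380_at and 1434998_at (unadjusted p = 0.00582 and 0.0150 from limma). With 1 array left out the count was 0 to 4. It was 4 without control 2, where 12.4% of all probe sets that are not dim passed. Those that passed without another array were Cask 1427692_a_at and Crkl 1421953_at (knockout 1), Nck1 1447271_at and Fyn 1448765_at (knockout 2), Cask 1455406_at (knockout 3) and Nck1 1421487_a_at and Crk 1448248_at (control 3). The shares of all probe sets with SAM, array weights, the replicate block or another array left out are not given here. These member counts are therefore not set against the array at large. The replicate numbers were not taken as pairs. The deviations of arrays of the same number correlated by 0.095, 0.35 and 0.25. A correlation of 0.1 was required for pairing, which number 1 narrowly missed. Every array nevertheless correlated best with its own number in the other group, and the labels do not say what arrays of 1 number share. The count of all probe sets past the criterion was 81, 141 with the span filter and 78 to 140 with 1 array left out. The count of pathway genes at an unadjusted p under 0.05 was 5 on all arrays and 7 with array weights. It was 6 with SAM, median centring, a second quantile normalization or the replicate block, 4 with the offset and 3 with the trend and robust prior. With the second quantile normalization the 6 included Src, which is dim and had the same deposited value on all arrays. The count was 2 with each filter on the mean (Kirrel and Pak2) and 1 with the span filter (Kirrel). It was 1 with the mean over a gene's probe sets and 1 to 6 with 1 array left out (2 without control 1 or knockout 2, 1 without knockout 3). Shares of all genes are given here only for the main fit and without control 2. Kirrel was not among the 5 and passed with SAM, both filters on the mean, the span filter, median centring, array weights and the replicate block. The difference of Ddn stayed at -8.64 with SAM (adjusted p = 0.1) and with the replicate block (adjusted p = 0.461), and ran from -8.76 to -8.46 with 1 array left out, with an adjusted p under 0.05 only without control 2. The cause of these shifts was not tested.

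Of 522 member values under alternatives, 4 changed sign with all arrays in the fit and 21 with 1 array left out. With array weights the sign turned for Crk 1416201_at (0.0063), Crkl 1436950_at (0.016), Sh3kbp1 1456261_at (-0.094) and Sh3kbp1 1460337_at (-0.0022). With 1 array left out, it turned for 12 of the 33 probe sets. Their ranges were -0.033 to 0.33 for Cask 1422519_at, -0.11 to 0.016 for Cd2ap 1420906_at, -0.043 to 0.094 for Cd2ap 1420907_at, -0.063 to 0.031 for Crk 1416201_at, -0.092 to 0.054 for Crkl 1436950_at and -0.19 to 0.14 for Nck1 1424543_at. They were -0.24 to 0.44 for Nck2 1416797_at, -0.12 to 0.061 for Pik3r1 1425515_at, -0.15 to 0.040 for Pik3r1 1438682_at, -0.60 to 0.030 for Pik3r1 1451737_at, -0.17 to 0.23 for Sh3kbp1 1456261_at and -0.048 to 0.16 for Sh3kbp1 1460337_at.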
